A study of Mus musculus with 4 samples.

Results

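Keratin-associated proteins, encoded by the Krtap genes, are small proteins that fill the space between keratin filaments in the hair shaft and cross-link them, the cysteine-rich kinds through disulfide bonds. They are made late in the differentiation of the shaft's cortex and cuticle in growing follicles. The family is divided into numbered subfamilies, which fall into high sulfur, ultra-high sulfur and high glycine-tyrosine classes. Members were all genes in the deposited gene lists whose symbol starts with Krtap. This gave 57 of 32285 genes in 27 subfamilies.

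Spatial transcriptomes had been measured with 10x Visium, which counts unique molecular identifiers (UMIs) in spots laid out on an array. The series offered 4 sections, 1 per group, all from wildtype mice and flash-frozen tissue: unwounded facial skin, facial skin at postoperative day 4, unwounded oral mucosa, and oral mucosa at postoperative day 4. The study compares repair of wounds in these tissues, and its title names Gas6 and Axl signalling. The labels give no age, sex, strain or number of animals. With 1 section per group no test was possible, so every interval below holds counting error only and says nothing of variation between animals.

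The sections held 430 to 1288 spots and 3004174 to 11939479 UMIs. Median UMIs per spot were 16128 in the unwounded facial section, 5372 in the facial day 4 section, 98 in the unwounded oral section and 5395.5 in the oral day 4 section. In the unwounded oral section only 523 of 1288 spots reached 1000 UMIs. The other 765 held 0.816% of its UMIs and lie mostly in a band at 1 edge of the array, and although the deposited positions mark them as under tissue, whether they cover tissue was not examined. Defining markers matched the labelled tissues. The oral keratin Krt13 had 197399 and 55167 UMIs in the unwounded and day 4 oral sections against 27 and 6 in the facial ones, and the epidermal keratin Krt10 had 66304 and 127263 UMIs in the facial sections against 800 and 86. The neutrophil list (5 genes) went against the facial labels, at 5856 CPM (UMIs per 1000000 of the section's total) in the section labelled unwounded and 225 CPM in the section labelled day 4. In the oral sections it was 30.2 and 3700 CPM. The X-linked transcript Xist had 1, 909, 0 and 84 UMIs in the facial unwounded, facial day 4, oral unwounded and oral day 4 sections, and the Y-linked gene Eif2s3y had 857, 0, 247 and 0. The sex of the mice, the section and the wound state therefore cannot be told apart in either wound comparison.

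Only 11 of the 57 members were detected, in 10 of 27 subfamilies (1, 2, 3, 4, 9, 11, 12, 13, 16 and 17). All 46 others had 0 UMIs in every section. The share of all genes with at least 1 UMI was not computed. At a limit of 20 UMIs over both facial sections, 1 of 57 members passed, against 14231 of 32285 genes. Whether reads of related members were lost in counting was not examined, so 0 UMIs need not mean absent RNA. The members held 937 UMIs together, and Krtap3-2 alone held 804 of them (85.8%). Krtap3-3 held 106, and the other 9 detected members held 27 together, none above 7. All 15 members of the high glycine-tyrosine subfamilies 6, 7, 8, 19, 20, 21 and 22 were at 0, as was every member of subfamily 5, which is ultra-high sulfur. High sulfur members, which include subfamily 3, held 922 UMIs (8 of 19 members detected), and ultra-high sulfur members held 15 (3 of 17).

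Of the 57 members, 56 had an entry in the RefSeq gene table. The largest groups lie on chromosome 11 (23 members, 8 detected) and chromosome 16 (24 members, 2 detected). Chromosome 10 holds 3 members, with 1 detected, and neither the 5 members on chromosome 7 nor the 1 on chromosome 1 had a UMI. Krtap3-3 (ENSMUSG00000069722, chr11:99550132-99550863) and Krtap3-2 (ENSMUSG00000069721, chr11:99555823-99556853) are neighbours on the minus strand of GRCm38.p6, 4959 bases apart. Krtap3-1, the remaining member of the subfamily, lies 9173 bases from Krtap3-2 and had no UMI in any section. The 150 bases before the start of each of these genes are shown because the 3 neighbours differed so widely in their counts. They are from RefSeq (GRCm38.p6, minus strand) at chr11:99556854-99557003, chr11:99550864-99551013 and chr11:99566631-99566780, and capitals mark the TATA-type stretch.
Krtap3-2: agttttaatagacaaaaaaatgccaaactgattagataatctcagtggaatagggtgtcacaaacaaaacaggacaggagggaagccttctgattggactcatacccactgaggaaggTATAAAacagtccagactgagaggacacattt
Krtap3-3: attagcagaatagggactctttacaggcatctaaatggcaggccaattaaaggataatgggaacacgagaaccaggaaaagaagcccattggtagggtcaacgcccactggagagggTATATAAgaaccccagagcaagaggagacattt
Krtap3-1: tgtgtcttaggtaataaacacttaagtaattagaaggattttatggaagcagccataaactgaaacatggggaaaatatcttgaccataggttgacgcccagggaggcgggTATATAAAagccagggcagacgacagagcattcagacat

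The marked stretch begins 32 bases before the start in Krtap3-2, 33 in Krtap3-3 and 39 in Krtap3-1. Over the 300 bases around the start, Krtap3-2 and Krtap3-3 had 58.3% identical bases in an alignment that allows gaps. The median over 1275 pairs of member promoters was 46.3%. Krtap3-1 was at 53% with Krtap3-2 and 51% with Krtap3-3. Over the 100 bases around the start, Krtap3-2 and Krtap3-3 were at 81%, and Krtap3-1 was at 56% and 54% with them. The letters TATAAA, the core of a TATA box, were found on either strand in 42 of 51 member promoters (82.4%) and in 13.6% of all 32851 promoters of that length. On the gene's own strand within the 50 bases before the start they were in 34 of 51 (66.7%), against 2.63% of all. Letters of the LEF1 and TCF type (CTTTGAA or CTTTGAT, either strand) were in 12 of 51 (23.5%) against 8.65%, and those of the HOX13 type (TTTATTG or TTTACGA) in 1 of 51 (1.96%) against 5.15%. A match is a description of letters and not a binding site. The detected and the undetected neighbours all carried a TATA-type stretch.

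Krtap3-2 was the only member found in all 4 sections. It had 57 UMIs in the unwounded facial section, 675 in the facial day 4 section, 17 in the unwounded oral section and 55 in the oral day 4 section. As a level this was 4.77 CPM (95% Poisson interval 3.62 to 6.19), 67.9 CPM (62.9 to 73.3), 2.33 CPM (1.36 to 3.74) and 18.3 CPM (13.8 to 23.8), in the same order. Both day 4 sections lay above both unwounded sections, and the intervals of the unwounded facial and unwounded oral sections met. Krtap3-3 was found only in the oral sections, with 0 and 0 UMIs in the facial unwounded and day 4 sections, 84 in the unwounded oral section (11.5 CPM, 9.20 to 14.3) and 22 in the oral day 4 section (7.32 CPM, 4.59 to 11.1). The facial day 4 section, with 675 UMIs of Krtap3-2, gave none to its neighbour, and a count of 0 allows up to 0.302 CPM there by a floor of 3 UMIs, or 0.371 CPM by the exact interval. How far reads could be shared between these related genes was not examined in transcript sequence.

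**Figure D1:**
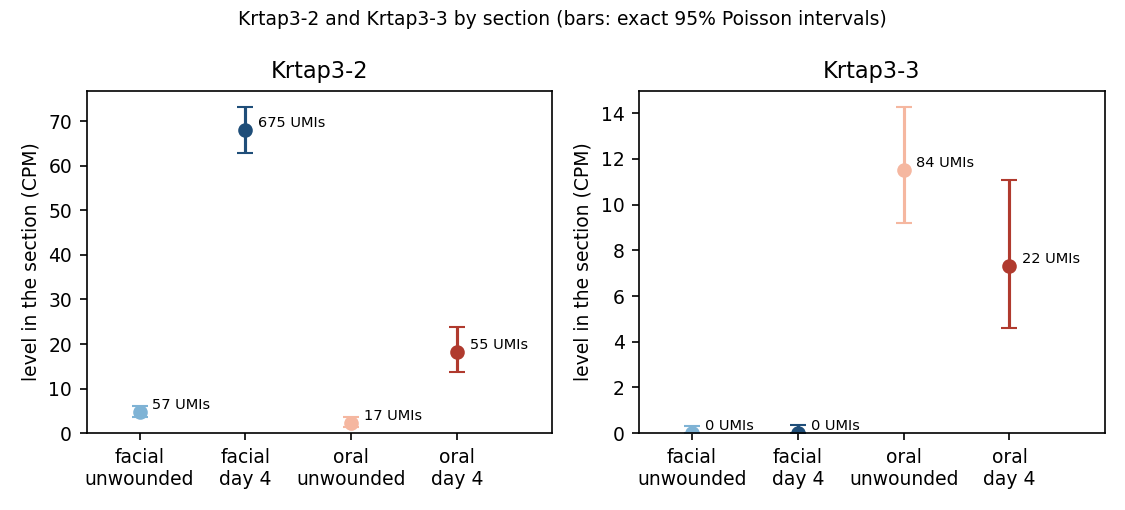
Level of Krtap3-2 (left) and Krtap3-3 (right) in CPM in each section, as points with exact 95% Poisson intervals and the UMI count beside each point. Krtap3-2 reaches 67.9 CPM in the facial day 4 section, and Krtap3-3 is above 0 only in the oral sections.

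The other 9 detected members were at or near the lowest countable level. Krtap17-1 had 1 UMI in the unwounded facial section and 6 in the facial day 4 section, each in a different spot. Krtap4-8 had 4 UMIs, all in 1 spot of the unwounded facial section, and Krtap9-3 had 1 in that section and 3 in a single facial day 4 spot. Krtap11-1 had 2 UMIs in the unwounded facial section. Krtap2-4 had 2 and Krtap1-5 and Krtap13-1 had 1 each in the facial day 4 section. Krtap12-1 was found only in the oral sections, with 4 UMIs unwounded and 1 at day 4, and Krtap16-1 had 1 UMI in the unwounded oral section. Differences between sections cannot be read from counts of this size.

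Between the facial sections the summed family rose from 65 UMIs (5.44 CPM, 4.20 to 6.94) unwounded to 688 UMIs (69.3 CPM, 64.2 to 74.6) at day 4. This was 12.7-fold (9.85 to 16.7), or 3.67 on the log2 scale (3.30 to 4.06). Krtap3-2 alone was 14.2-fold higher (10.9 to 18.99). It was the only member with at least 20 UMIs over both sections, and it was higher by the rule used for all genes, namely at least 1.5-fold with Poisson intervals apart. By that rule 6.09% of 14231 genes were higher and 8.59% lower at day 4. Their median log2 ratio was -0.03 after 10 CPM was added to each level, and Krtap3-2 was at 2.40 on that measure. The ratio of 15 of the 14231 genes was at or above that of Krtap3-2. Fewer cells of a type and less RNA per cell cannot be told apart in such sums.

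The epidermal genes measured in the same sections also differed. Lor (loricrin, the main protein of the cornified envelope) was 1.68-fold higher at day 4, Krt10 2.31-fold and Krt1 1.86-fold, while Flg (filaggrin) was 1.40-fold and Ivl (involucrin) 1.03-fold and did not meet the rule. The 21 late cornified envelope (Lce) genes, a list added after the data were seen, were 1.61-fold higher in sum, with 12 higher and 6 lower of 21 by the rule. All 6 Lce3 genes had log2 ratios below 0, down to -2.73 for Lce3b, and the Lce1 genes and Lce6a had ratios above 0, up to 1.35 for Lce1m. The stress keratins Krt6a, Krt16 and Krt17 were lower at day 4, at 0.475, 0.480 and 0.542 of the unwounded level. Set against Lor, Krtap3-2 stood at 0.924 UMIs per 1000 Lor UMIs unwounded and 7.83 at day 4, which was 8.48-fold (6.47 to 11.1). Set against the Lce list it was 8.85-fold (6.75 to 11.6). The ratio was therefore smaller per epidermal UMI than per section UMI, and above 1 on each of these scales.

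Splitting each section in 4 at its median array row and column gave values that show the spread within a section. Per 1000 Lor UMIs, Krtap3-2 was 0.696, 1.10, 0.840 and 0.446 in the parts of the unwounded facial section and 7.37, 10.98, 9.10 and 5.87 in those of the day 4 section. The parts of the facial sections did not overlap, but parts of a section share 1 library and are not replicates. The unwounded values rest on 2, 35, 17 and 3 Krtap3-2 UMIs. Without part 2 of the unwounded facial section, which held 35 of its 57 Krtap3-2 UMIs, the log2 ratio of Krtap3-2 was 4.65 in place of 3.83. Without part 3 of the day 4 section it was 3.34. As a level, the parts ranged from 0.831 to 9.22 CPM unwounded and from 23.9 to 97.7 CPM at day 4. In facial spots with neutrophil genes under 0.1% of UMIs, Krtap3-2 was 1.91 CPM unwounded (4 UMIs in 101 spots) and 67.5 CPM at day 4 (1062 spots). In the other facial spots it was 5.38 and 74.4 CPM. The day 4 value was thus the higher in both kinds of spot, and the part of neutrophils in the difference was not tested. The unwounded spots low in neutrophil genes held little Lor, at 2762 CPM against 8674 CPM in those of day 4. Only 7 of these unwounded spots had at least 1% Lor, and they held 0 Krtap3-2 UMIs.

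**Figure D2:**
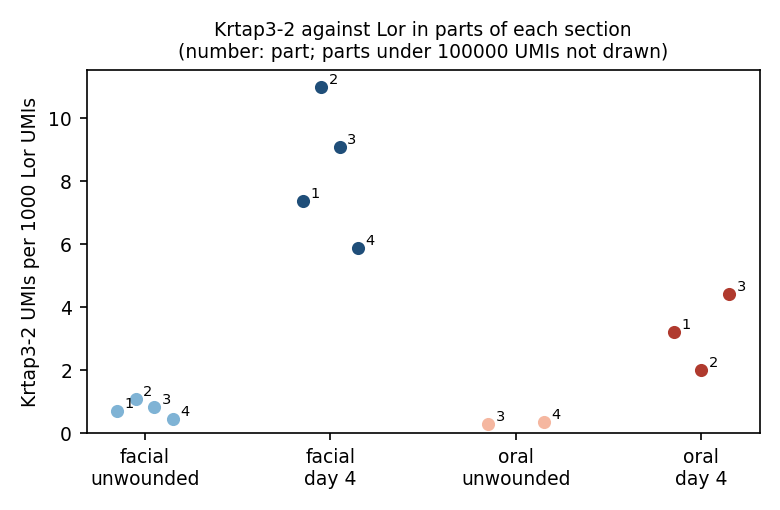
Krtap3-2 UMIs per 1000 Lor UMIs in the 4 parts of each section, numbered at the points. Parts with under 100000 UMIs are not drawn. The facial day 4 parts lie between 5.87 and 10.98, above the unwounded facial parts at 0.446 to 1.10. Parts 1 and 4 of the unwounded facial section rest on 2 and 3 Krtap3-2 UMIs, and parts are not replicates.

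In the oral sections both members were measured, and their levels went different ways. The summed family was 14.6 CPM (11.9 to 17.6) unwounded and 25.96 CPM (20.5 to 32.4) at day 4, 1.78-fold higher (1.31 to 2.41). Krtap3-2 was 7.85-fold higher at day 4 (4.49 to 14.4). Krtap3-3 was 0.635 of its unwounded level (0.378 to 1.03), an interval that takes in 1. Of the 2 members with at least 20 UMIs over both sections, 1 was higher and 0 lower, against 20.6% and 3.56% of 12544 genes. Krtap3-2 made up 16.8% of the UMIs of the pair in the unwounded section (exact Clopper-Pearson 95% interval 10.1 to 25.6) and 71.4% at day 4 (59.997 to 81.2), a share that does not depend on section scaling. A mean of spot CPM, which gives each spot equal weight, put the log2 value of the summed ratio at -1.55 in place of 0.84. The 765 unwounded oral spots under 1000 UMIs, which held 3 Krtap3-3 UMIs, count fully in that mean. Spots with at least 1000 UMIs, summed, gave 0.88. The summed ratio also depended on where in the sections it was taken: it was 0.062 without part 2 of the oral day 4 section and 1.81 without part 3 of the unwounded one. That of Krtap3-3, -0.65, became 0.16 and 0.48 without part 3 of the day 4 or of the unwounded section and -3.30 without part 2 of the day 4 section, whereas that of Krtap3-2, 2.97, lay between 2.52 and 3.45 over all parts left out.

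Lor itself hardly differed between the oral sections, at 0.961 of its unwounded level at day 4. Krtap3-2 was 0.310 UMIs per 1000 Lor UMIs unwounded and 2.53 at day 4. By part the values at day 4 were 3.20, 2.00, 4.42 and 0, the last from a part of 58430 UMIs. The unwounded parts were at 0, 0, 0.292 and 0.351. The parts at 0 there held only 18885 and 12574 UMIs, so they carry little weight. The neutrophil list moved with this comparison, from 30.2 to 3700 CPM, and its part in the result was not tested. Among oral day 4 spots with at least 1% Lor, Krtap3-2 was 2.84 per 1000 Lor UMIs where neutrophil genes were under 0.1% of UMIs (25 spots) and 0.352 where they were not (11 spots, 1 UMI).

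Across tissues, the unwounded oral section had 2.67 times the summed level of the unwounded facial one (1.94 to 3.70). Krtap3-3 was at least 45.9-fold higher in the oral section, taking a floor of 3 UMIs for the facial section, and the exact interval of the ratio, which also covers counting error in the oral count, begins at 36.5-fold. Krtap3-2 was at 0.489 of the facial level (0.267 to 0.852), and since the intervals of the sections met it was neither higher nor lower by the rule. Of these 2 members 1 was higher and 0 lower, against 10.1% and 59.7% of 14026 genes. At day 4 the order of the sums turned, with the oral section at 0.375 of the facial one (0.293 to 0.474). Krtap3-2 was 0.269 of the facial level (0.201 to 0.355) and Krtap3-3 at least 24.3-fold higher against the same floor, with an exact interval that begins at 18.1-fold. Of these 2 members 1 was higher and 1 lower, against 11.5% and 35.5% of 13633 genes. The tissue order also changed with the scale. Per UMI of the interfollicular list (Krt1, Krt10, Lor, Flg and Ivl), of which the oral sections held little beside Lor, the oral day 4 sum was above the facial one (log2 1.03 in place of -1.42). Krtap3-2 was at 0.55 (0.15 to 0.95) at day 4 on that scale. Unwounded it was at 0.45 (-0.33 to 1.23), an interval that takes in 0. These comparisons reuse the same 4 sections and are not independent of one another.

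Spots with Krtap3-2 were many in the facial day 4 section and few elsewhere. It was found in 45 of 671 facial unwounded spots, 247 of 1141 facial day 4 spots, 15 of 1288 oral unwounded spots and 27 of 430 oral day 4 spots. Among spots with at least 1000 UMIs the shares were 6.89%, 22.5%, 2.87% and 7.40%. The highest count in 1 spot was 6, 24, 3 and 8 in the same order. Of the facial day 4 spots with Krtap3-2, 197 of 247 had a neighbouring spot that also held it, and in the unwounded facial section 19 of 45 did. Krtap3-3 was in 52 unwounded oral spots and 15 oral day 4 spots, or 9.56% and 4.11% of those with at least 1000 UMIs. Both genes met in 4 unwounded oral spots, which were 26.7% of the Krtap3-2 spots and 7.69% of the Krtap3-3 spots. At day 4 they met in 7 spots, 25.9% and 46.7% of those with each gene.

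Depth differed between sections, so spots were also thinned to 5000 UMIs each, leaving out shallower ones. Krtap3-2 was then in 2.18% of 596 facial unwounded spots (7.05% before thinning, 75 spots left out), 20.4% of 593 facial day 4 spots (36.3%, 548 left out), 2.26% of 442 oral unwounded spots (3.17%, 846 left out) and 4.78% of 230 oral day 4 spots (10.9%, 200 left out). Krtap3-3 was in 3.62% and 3.04% of the unwounded and day 4 oral spots (10.6% and 6.09% before thinning). The facial day 4 section kept the highest share at equal depth, with intervals of 17.2 to 23.9% against 1.17 to 3.70% in the unwounded facial section. The Lor share of the kept spots was not matched. At facial day 4 the median depth was 3328.5 UMIs in spots under 0.1% Lor and 12528.5 at 1 to 5%. In the unwounded facial section these depths were 20292.5 and 11948.5. The oral shares of Krtap3-2 had intervals that met, 1.09 to 4.12% and 2.41 to 8.40%.

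**Figure D3:**
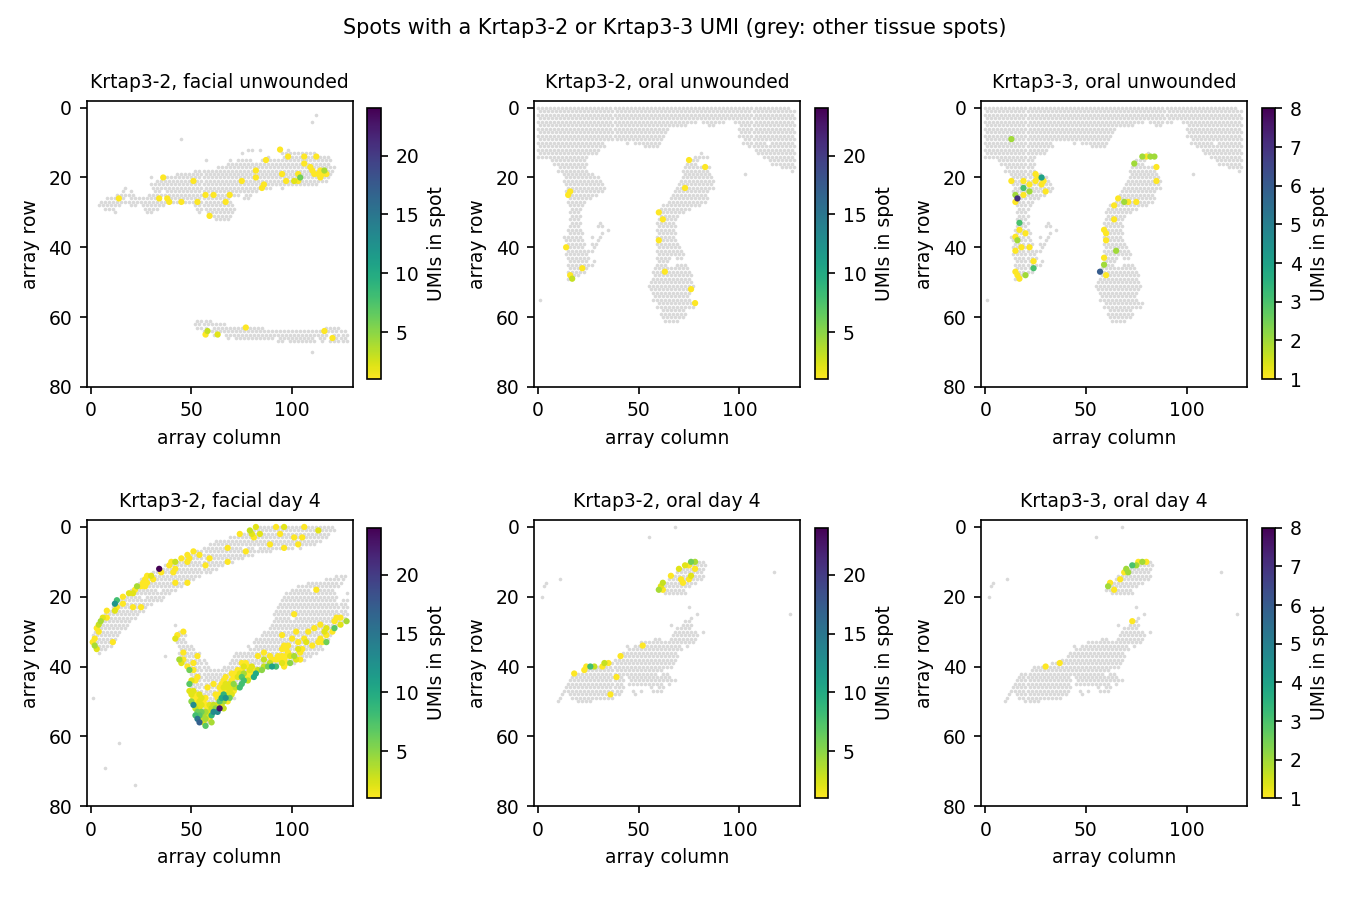
Array maps of UMIs per spot (colour) for Krtap3-2 in all 4 sections and Krtap3-3 in the oral sections, with the other spots marked as under tissue in grey and array row and column on the axes. The 247 spots with Krtap3-2 in the facial day 4 section stand in groups, 197 of them beside another such spot, and the highest holds 24 UMIs.

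Hair keratins were sparse, and the signal was set against them. Of the 15 hair keratins listed, 14 matched a symbol, and they had 188, 103, 277 and 49 UMIs in the facial unwounded, facial day 4, oral unwounded and oral day 4 sections. In the facial sections most came from Krt84 (144 and 18 UMIs), Krt35 (15 and 37) and Krt32 (19 and 37), and in the oral sections from Krt32 (222 and 33). The shaft keratins Krt39, Krt40 and Krt81 were at 0 in every section, and Krt31 had 1, 1, 4 and 2 UMIs. By the call rule 2 of 3 measured hair keratins were higher and 1 lower at facial day 4, with Krt32 2.34-fold higher and Krt84 at 0.1502 of its unwounded level.

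Spots with Krtap3-2 had more hair keratin than spots without it in 3 of the 4 sections. The list was at 49.1 CPM with and 12.8 CPM without in the unwounded facial section, 79.5 and 36.3 CPM in the unwounded oral section, and 52.0 and 9.18 CPM in the oral day 4 section. In the facial day 4 section it was 9.32 CPM with and 11.1 CPM without. Spots with Krtap3-3 had 74.6 against 31.4 CPM in the unwounded oral section and 52.3 against 12.2 CPM at day 4. The keratins behind this differed by tissue: in the unwounded facial section all 47 hair keratin UMIs in Krtap3-2 spots were Krt84, while in the oral day 4 section Krt32 gave 19 UMIs in the Krtap3-2 spots and 14 in the others.

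Seen from the hair keratin side, the 3 unwounded facial spots with at least 10 hair keratin UMIs held 3 of its 65 member UMIs (4.62%, exact interval 0.962 to 12.9%) and 0.774% of all UMIs. No other section had such a spot. With a limit of 1 hair keratin UMI, the summed family stood at 6.49 CPM in these spots and 5.17 CPM outside them in the unwounded facial section, with intervals that met. At facial day 4 the values were 88.3 CPM (71.4 to 107.9) and 66.9 CPM (61.7 to 72.6), also meeting. In the oral sections the intervals were apart, at 26.7 CPM (20.8 to 33.8) against 7.87 CPM (5.54 to 10.8) unwounded and 99.8 CPM (73.9 to 132.0) against 11.5 CPM (7.73 to 16.6) at day 4. Among facial day 4 spots with at least 1% Lor, Krtap3-2 was 220 CPM in 140 spots without a hair keratin UMI and 233 CPM in 18 spots with one. In the oral day 4 section these values were 63.9 CPM (33.02 to 111.6) and 92.1 CPM (63.0 to 130.1), 18 spots each. At this Lor share the intervals met in both sections, and the spots with a hair keratin UMI were the deeper ones (median 18822 against 6712.5 UMIs in the oral day 4 section).

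Follicles were present in the facial sections by other markers. The inner root sheath keratins and trichohyalin had 948 and 1100 UMIs there, against 19 and 7 in the oral sections. The hair matrix regulators Hoxc13 (160 and 221 UMIs) and Shh (53 and 88) and the melanocyte gene Dct (320 and 728) were at 0 in the oral sections. The whole list of 10 matrix regulators was not, with 4136 and 4191 facial UMIs and 686 and 217 oral ones. Its member Msx1 was higher in the oral sections, at 6.73 and 19.6 CPM against 1.84 and 5.03 CPM. The list of 8 hair shaft partners also went the other way, with 1615 and 964 facial UMIs and 12464 and 5185 oral ones. Of these oral UMIs, Tgm3 gave 8192 and 3313. Spots with at least 10 inner root sheath UMIs held 1 of 65 member UMIs in the unwounded facial section (1.54%, in spots with 3.02% of all UMIs). At day 4 they held 1 of 688 (0.145%, in spots with 1.60% of all UMIs). The family is named for hair, whereas 46 of its members had no UMI in these sections, including the facial ones with inner root sheath RNA.

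The level of Krtap3-2 went up with the share of Lor in a spot. In the facial day 4 section it was 7.31 CPM in spots with under 0.1% Lor, 25.4 CPM at 0.1 to 1%, 187 CPM at 1 to 5% and 471 CPM at 5% or more. It had a UMI in 3.06%, 19.4%, 68.9% and 92.3% of these spots, whose median depths were 3328.5, 6321, 12528.5 and 10505.5 UMIs. The 26 spots of the highest bin held 19.6% of its UMIs and 2.82% of the section's. In the unwounded facial section the levels were 0.822, 3.02, 19.2 and 33.9 CPM, the last from 2 UMIs in 11 spots. The day 4 level was the higher in each bin, and the intervals were apart in every one.

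In the oral day 4 section Krtap3-2 was 1.27, 10.0, 58.8 and 358 CPM over the same bins, and Krtap3-3 was 0, 5.56, 32.4 and 23.9 CPM, the last from 1 UMI. In the unwounded oral section Krtap3-3 was 1.12, 5.86, 42.3 and 31.7 CPM and Krtap3-2 was 0.560, 1.46, 7.06 and 7.92 CPM. The lowest bin and the upper bins of that section hold many shallow spots (median depths 31, 92 and 49 UMIs), so their limits sort such spots loosely. Krtap3-3 did not differ beyond its counting intervals between the oral sections in any bin.

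**Figure D4:**
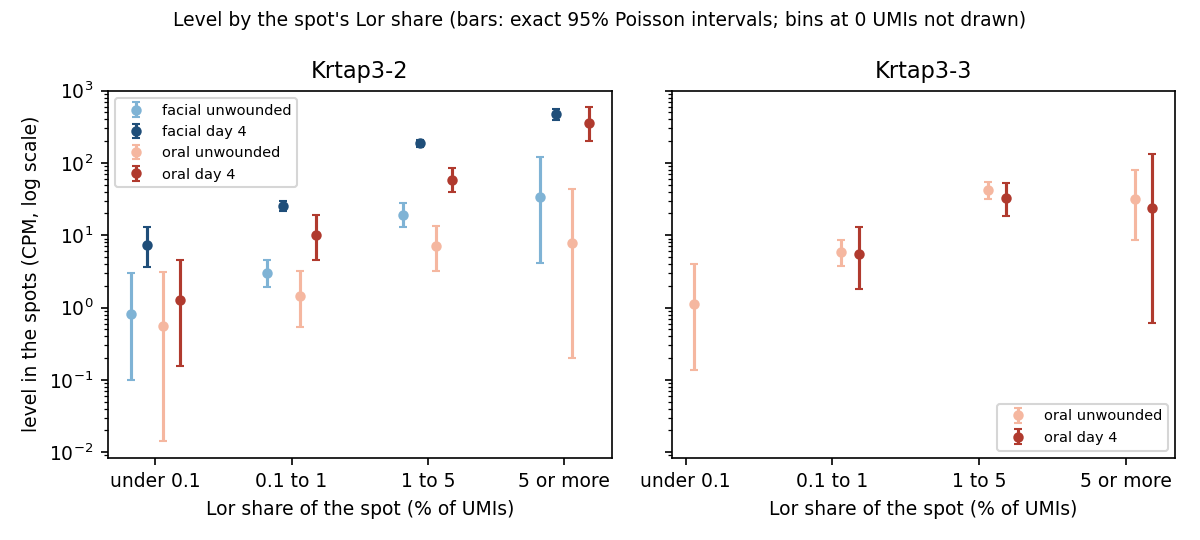
Level of Krtap3-2 (left) and Krtap3-3 (right) in CPM on a log axis, in spots sorted by the share of Lor in their UMIs, with exact 95% Poisson intervals. Krtap3-2 in the facial day 4 section goes from 7.31 CPM in the lowest bin to 471 CPM in the highest.

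Spots with and without the genes also differed in other markers, not always in the same direction across sections. Krt16 was higher in spots with Krtap3-2 in the unwounded sections, at 5387 against 4055 CPM (facial) and 833 against 428 CPM (oral). It was lower in them at day 4, at 1792 against 2147 CPM (facial) and 760 against 1476 CPM (oral). In the facial day 4 section, spots with Krtap3-2 had 19082 CPM of Krt10 against 8249 in spots without it, 7905 against 2387 CPM of Flg and 19467 against 4989 CPM of the Lce genes. They had less of the fibroblast collagen Col1a1, at 1038 against 5798 CPM, and of the inner root sheath list, at 28.5 against 171 CPM. In the unwounded oral section, spots with Krtap3-3 had 58852 CPM of Krt13 against 21369, and 20482 CPM of Lor against 5181. In the oral day 4 section those values were 67923 against 12749 and 30892 against 4543. A spot can hold several cell types, so these values do not place the RNA in a cell type, and deeper spots are more likely to hold a UMI (median depth 14417 with and 4129.5 without in the facial day 4 section).

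The genes most like the summed family were sought across the 671 spots of the unwounded facial section, among genes with at least 100 UMIs there, by Pearson correlation of log-normalised levels. These spots share a library and differ in depth, and the correlations were weak. The 10 highest were Lce3b, Cnnm4, Lce3d, Spsb3, Slc26a9, Lce1f, Lce1h, Dnase1l2, Aif1l and Lce6a, from 0.27 for Lce3b to 0.23 for Lce6a. Over the 1141 facial day 4 spots the same genes gave 0.58 for Lce6a, 0.57 for Lce1h, 0.55 for Aif1l and 0.50 for Lce1f, while Lce3b gave -0.01 and Lce3d 0.05. Among facial day 4 spots with at least 1000 UMIs, Krtap3-2 had a correlation of 0.55 with the Lce list, 0.52 with Lor and 0.02 with the hair keratins. With the same depth limit the values were 0.26, 0.22 and 0.10 in the unwounded facial section, 0.16, 0.15 and 0.12 in the unwounded oral section and 0.42, 0.41 and 0.35 in the oral day 4 section. For Krtap3-2 the correlation with the hair keratins was thus far below that with Lor at facial day 4 and close to it in the oral sections. At facial day 4 the hair keratin list had only 103 UMIs, at most 4 in a spot, against 86176 of Lor. Counts that sparse hold a correlation near 0, so these values do not compare the 2 as partners of Krtap3-2. For Krtap3-3, with most member UMIs in the unwounded oral section, the values there were 0.27 (Lce list), 0.29 (Lor) and 0.18 (hair keratins). In the oral day 4 section they were 0.26, 0.30 and 0.23.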

How the data were processed

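The deposited matrices hold UMI counts per gene and spot, not normalized by the authors. The version per the file headers was Space Ranger 1.3.1, and Seurat and mm10 are named as well (submitters' processing notes). An aligner is not given in the sources used here. Only spots marked as under tissue are listed, out of 4992 on an array. Barcodes are array positions, and 754 occur in more than 1 section.

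UMIs were summed over a section and scaled to CPM, with exact 95% Poisson intervals and exact conditional intervals for ratios. Ratios to a list used an approximate log interval. A gene was higher or lower with at least 20 UMIs over both sections, at least 1.5-fold and intervals apart. The floor for a count of 0 is 3 UMIs. The call rule and the ratio interval were also run on simulated independent Poisson counts. Those counts had no spread between animals or between spots, so the run says nothing of either. Sections were split in 4 at their median array row and column. Python 3.11.15, SciPy 1.17.1, R 4.3.3 and edgeR 4.0.16 (scaling factors only) were used.

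The members and marker lists were chosen with earlier results of these data known. Named genes were the highest members by UMIs in each subfamily and class, markers with the most UMIs in a list, and the 10 genes most like the family. All detected members are given, and the Lce list, Lor as a scale and some other genes were picked after their values were seen. The planned classes by protein composition could not be formed without protein sequences, and classes by subfamily number replaced them. Alternatives were other scalings, spot filters, hair spot limits and parts left out.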

Additional observations from a re-analysis of the deposited data

How the results depend on the processing

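No paired analysis was possible because each group has 1 section. Of 198 alternative values over 16 results, 146 were classed as the same, 46 as moved and 6 as reversed. For ratios, the same meant that direction was kept and the move was less than the counting interval. Some of the 146 had little or no room to change, so they are no evidence of stability. The high glycine-tyrosine shares were 0 under every setting because those members had no UMI. The counts of members called higher or lower have no counting interval, and at the main minimum only 1 member could be called. The cause of a move was not tested. All values here are log2 ratios unless given as a share. For the summed family at facial day 4 against unwounded (3.67), a mean of spot CPM gave 2.84 and spots with few neutrophil UMIs 4.85. Per interfollicular marker, Lor or Lce UMI it was 2.78, 2.92 or 2.98. For unwounded oral against facial (1.42), TMM gave 2.18, a total without mitochondrial and abundant genes 1.94, a mean of spot CPM 2.57, and per interfollicular marker or Lor UMI 2.90 or 0.88. For oral against facial at day 4 (-1.42), TMM gave -1.05, a mean of spot CPM -1.82, leaving out the 5 highest spots of each section -1.85, per Lce UMI -0.75 and per interfollicular marker UMI 1.03. Krtap3-2 was classed as reversed on that last scale as well, at 0.55 at day 4 and 0.45 unwounded. The interval of the unwounded value (-0.33 to 1.23) takes in 0. For oral day 4 against unwounded (0.84), a mean of spot CPM gave -1.55 and spots with at least 1000 UMIs 0.88. Leaving out 1 part of a section at a time gave 3.18 to 4.28, 0.44 to 2.18, -2.19 to -0.91 and 0.062 to 1.81 for these 4 sums. It gave -3.30 to 0.48 for Krtap3-3 between the oral sections, with reversals to 0.16 and 0.48. The share of member UMIs in hair keratin spots was 0 in the unwounded facial section with a limit of 30 UMIs or of 0.1% of the spot, and 0.727% at facial day 4 with a limit of 3 UMIs (no spot there reached 10). Members per hair keratin UMI (4.27) gave 3.19 against the inner root sheath list, and 3.83 to 4.58 with parts left out. The scales by interfollicular, Lor or Lce UMI, the neutrophil filter and the classes by subfamily number were chosen after seeing the data. Other class limits and a filter on near-identical proteins were not run for want of protein sequences. Depth limits the 9 sparse members, each with at most 7 UMIs.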
